A study of Mus musculus with 123 samples.

Results

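Early inner cell masses (ICMs) of the Sox2 mouse line were compared according to whether the oocyte had carried an intact Sox2 gene. The members are the 8 early ICMs labelled Ctrl, from which the maternal gene had been removed, and the 7 early ICMs labelled MWT, in which it was intact. These 15 ICMs were picked by their sample names, and the series holds 108 further single-embryo libraries of Oct4-line and KO embryos, morulae and late ICMs. Each library is 1 embryo, sequenced from transcript 3′ ends and counted by unique molecular identifiers (UMIs), so that 1 UMI stands for 1 captured RNA molecule.

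Ctrl embryos came from Sox2 flox/flox mothers with the Zp3-Cre transgene, which is active in growing oocytes, and from Sox2 +/EGFP fathers. They carried the deleted maternal allele and an intact paternal allele, and were chosen as non-fluorescent embryos. MWT embryos came from floxed mothers without Cre, and the study's description allows Sox2 flox/EGFP as well as Sox2 +/flox embryos in that group, without saying which embryo is which. A Ctrl embryo therefore had 1 intact Sox2 allele, and a MWT embryo had 1 or 2. KO embryos, used here for side-by-side values and as an alternative stage reference, carried EGFP on the paternal allele and came from the same kind of mothers as Ctrl. All 3 groups were collected at E2.5, cultured with 1 µM of the MEK inhibitor PD0325901, which holds back primitive endoderm, and isolated by immunosurgery as early ICMs at E3.75. The Ctrl and MWT embryos had different mothers. Maternal genotype, the mothers' Cre transgene, the embryo's number of intact Sox2 alleles, litter and collection day therefore cannot be told apart. No label gives a batch.

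Sox2 is an HMG-box transcription factor that binds DNA together with Oct4 (gene Pou5f1) and marks the pluripotent cells of the ICM. The ICM forms as the morula cavitates, and on the way to the late blastocyst its cells become either naive epiblast, which secretes Fgf4, or primitive endoderm, which expresses Gata6. RNA and protein stored in the oocyte are replaced by the embryo's own products during cleavage.

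The Ctrl libraries held 812 to 1052 kUMIs (929 ± 83.4, SD, n = 8) and the MWT libraries 690 to 910 kUMIs (812 ± 75.8, SD, n = 7), a difference that passed a two-sided exact permutation test (p = 0.0152). By a minimum of 10 Y-linked UMIs, 3 of 8 Ctrl and 5 of 7 MWT embryos were male. Levels are given as CPM, the UMIs of a gene scaled to a common library total, and fold changes are Ctrl minus MWT on the log2 scale with their standard error. Zfp42, a marker of naive pluripotent cells, was present in all embryos, at 349 to 459 CPM in Ctrl and 321 to 489 CPM in MWT. In such bulk libraries, fewer cells of a type and less RNA per cell cannot be told apart.

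Sox2 itself (ENSMUSG00000074637, mm10 chr3:34650405-34652461) did not separate the groups. Its level was 72.6, 94.0 and 194 CPM at the lowest, median and highest of the 8 Ctrl embryos, and 40.6, 106 and 199 CPM in the 7 MWT embryos. The log2 fold change was -0.01 ± 0.30 (adjusted p = 0.993). This RNA comes mainly from the embryo, and the floxed allele carries recombination sites in its 3′ UTR, where these libraries are read, so it is no check of the maternal deletion. The KO embryos had 23.6 ± 10.0 CPM (SD, n = 8).

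Pou5f1 (ENSMUSG00000024406, chr17:35506018-35510772), the partner of Sox2, was lower in every Ctrl embryo than in any MWT embryo. The Ctrl embryos ranged from 40.5 to 88.6 CPM around a median of 53.7, and the MWT embryos from 97.7 to 133 around 115. The log2 fold change of -1.01 ± 0.22 passed the test (adjusted p = 0.00104) but lay at the fold minimum, and scaling by total UMIs, thinned counts or sex as a covariate took it just below that minimum, as did 5 of the 15 fits that left out 1 embryo (-0.95 at the smallest). Early ICMs of the KO group had 52.3 ± 10.8 CPM (SD, n = 8), and those of the Oct4 Ctrl group, which stem from Oct4-deleted oocytes, had a mean of 80.6.

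Of 13923 genes tested with edgeR's quasi-likelihood test, 359 (2.58%) were called between Ctrl and MWT at an adjusted p under 0.05 and at least 1 on the log2 scale. Of these, 196 (1.41%) were higher and 163 (1.17%) lower in Ctrl. This balance held in DESeq2 (181 higher and 168 lower). It turned in 15-ICM fits with sex as a covariate (129 and 152) and with limma voom (144 and 179). The levels of the 2 groups did not overlap for 56 of the 359 called genes, compared with 1.14% of all tested genes. Leaving out X- and Y-linked genes kept 352 calls, and the calls were spread over the chromosomes.

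To ask which of these changes look like a developmental lead, each called gene was set against embryos that took no part in the comparison. The reference was the change from early ICM at E3.75 to late ICM at E4.5 in the Oct4 Ctrl group (8 embryos at each stage, all cultured from E2.5 with 1 µM of the inhibitor), in which 1314 genes rose (9.44% of those tested) and 869 fell (6.24%). A gene was said to run with a lead if it was higher in Ctrl and rose with stage, or lower in Ctrl and fell with stage. Of the 196 genes higher in Ctrl, 64 rose from early to late ICM (32.7%) and 5 fell. Of the 163 genes lower in Ctrl, 27 fell (16.6%) and 14 rose (8.59%). In all, 91 called genes (25.3%) ran with a lead, 19 (5.29%) ran against it, and 249 (69.4%) were not called between the stages. The split of those with a lead was 68 higher and 32 lower in DESeq2, and 42 higher and 38 lower in limma voom with sample quality weights on the 15 ICMs alone. Beside their shares of all tested genes, stage-rising genes made up 32.7% of the higher genes against 9.44%, and stage-falling genes 16.6% of the lower genes against 6.24%. The number running with a lead depended on single embryos, as did the number called. Those with a lead were 139 of 454 called genes without Ctrl embryo 2 and 59 of 262 without MWT embryo 14.

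**Figure D1:**
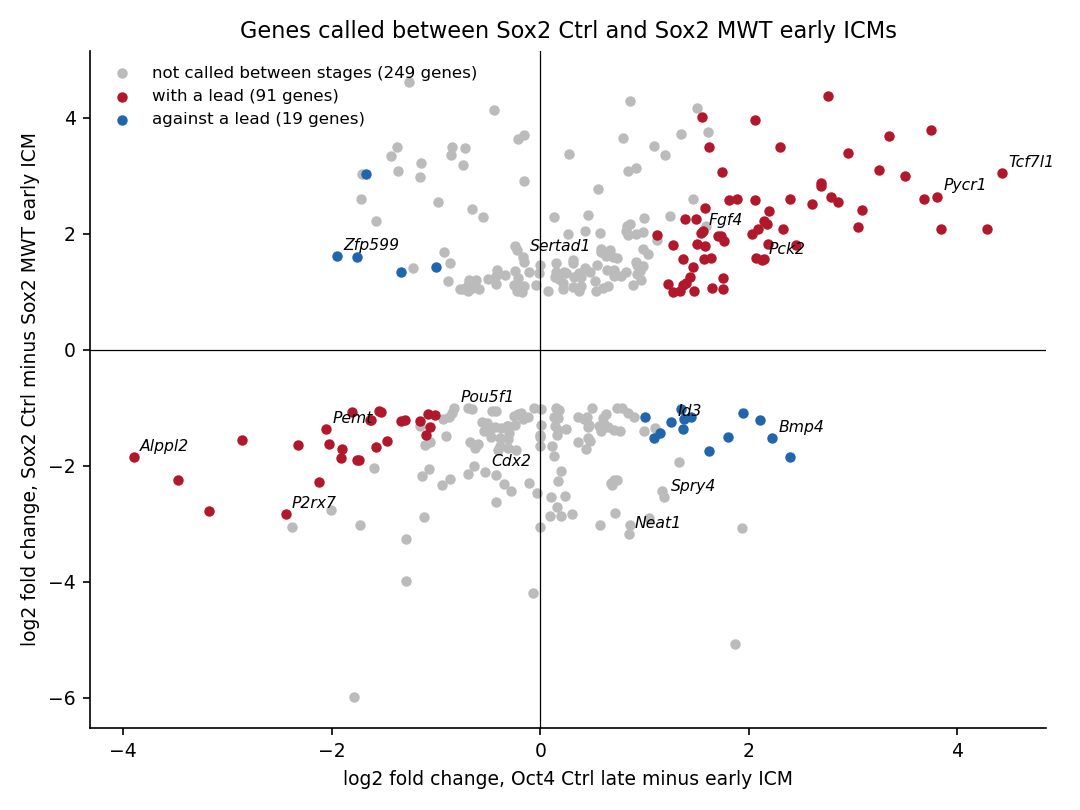
Each point is 1 of the 359 genes called between Sox2 Ctrl and Sox2 MWT early ICMs, with its log2 fold change from early to late ICM in Oct4 Ctrl embryos on the x axis and its log2 fold change Ctrl minus MWT on the y axis. The 91 genes that ran with a lead fill the upper right and lower left, the 19 that ran against it the other corners, and the 249 grey genes were not called between the stages.

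The preceding step of development gave the same kind of count. The Oct4 Ctrl morulae (8 embryos) were collected at E2.75 and had no inhibitor or culture, so that stage, culture, inhibitor and ICM isolation cannot be told apart at this step. From morula to early ICM, 2026 genes rose in Oct4 Ctrl embryos (14.6%) and 2035 fell (14.6%). Of the genes higher in Ctrl, 84 of 196 rose at this step (42.9%) and 7 fell, and of the genes lower in Ctrl, 65 of 163 fell (39.9%) and 18 rose. Here 149 called genes ran with a lead and 25 against it. The 2 stage steps share the Oct4 Ctrl early ICMs and are not independent of each other. Called in neither step were 128 of the 359 genes (35.7%), compared with 60.8% of all tested genes.

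A stage score was computed for each embryo as the mean log2 level of the stage-rising genes minus that of the stage-falling genes. It was scaled so that Oct4 Ctrl early ICMs average 0 and Oct4 Ctrl late ICMs average 1. Oct4 Ctrl morulae, an earlier stage, averaged 0.0787, so the scale does not order all stages. On this scale the Ctrl embryos lay at 0.263, 0.364, 0.399, 0.505, 0.572, 0.694, 0.696 and 0.717, and the MWT embryos at 0.252, 0.306, 0.378, 0.380, 0.402, 0.444 and 0.507. Thus 4 of the 8 Ctrl embryos lay above every MWT embryo and the others lay among them. The means were 0.526 ± 0.172 (SD, n = 8) and 0.381 ± 0.0844 (SD, n = 7), and their difference of 0.145 did not pass the two-sided exact permutation test (p = 0.0678). It was 0.183 without Ctrl embryo 2 (exact p = 0.0192) and 0.168 without Ctrl embryo 5 (exact p = 0.0390). KO embryos scored 0.371 to 0.534, and late ICMs of the Sox2 Ctrl group 0.695 to 0.991. The highest Ctrl early ICMs therefore reached the lower end of the late ICMs of their own line.

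The score of the morula to early ICM step, scaled from 0 in Oct4 Ctrl morulae to 1 in Oct4 Ctrl early ICMs, differed between the groups. Ctrl embryos averaged 0.886 ± 0.0902 (SD, n = 8) and MWT embryos 0.784 ± 0.0385 (SD, n = 7), a difference of 0.101 (two-sided exact permutation p = 0.0197). Both means lay below that of the Oct4 Ctrl early ICMs here, but above it on the early to late score. Above the highest MWT embryo lay 6 of 8 Ctrl embryos, and the lowest embryo of all was Ctrl embryo 2, at 0.700. As both scores are relative, a lead of Ctrl and a lag of MWT embryos cannot be told apart. Depth differed between the groups in the same direction; with the counts of all 15 ICMs thinned to the lowest total, 294 genes were called and 74 ran with a lead, and with sex as a covariate 281 were called and 71 ran with a lead. Their part in the scores was not tested.

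**Figure D2:**
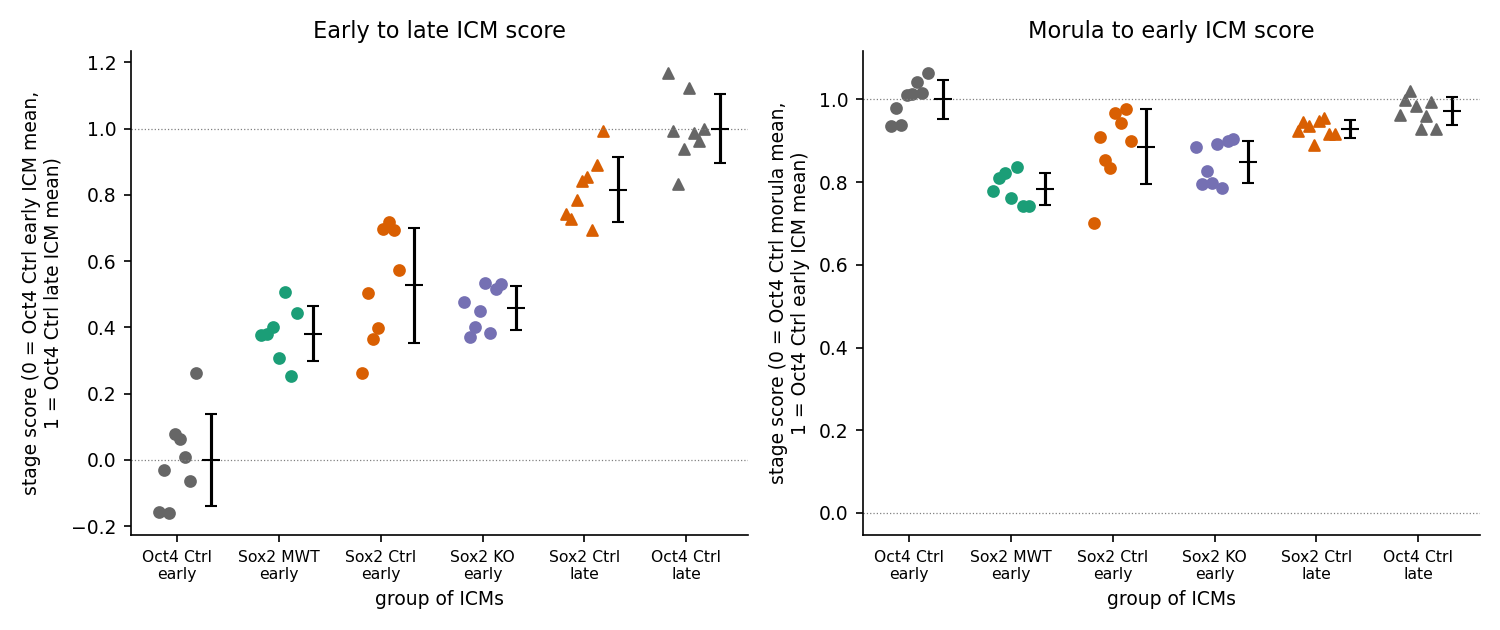
Stage scores of single ICMs, in units of the Oct4 Ctrl stage difference (y axis), by group (x axis), with mean and SD beside the points; circles are early and triangles late ICMs. In the left panel 4 of 8 Sox2 Ctrl early ICMs lie above every Sox2 MWT early ICM, and in the right panel 6 of 8 do.

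Both other references changed the result of the early to late score. The title and source name of the Oct4 MWT early and late ICMs disagree on the stage, and the title was used. With the early to late change of these Oct4 MWT embryos, in which 1838 genes were called (13.2%), 96 genes ran with a lead and 16 against it, and the score difference of 0.158 passed the test (exact permutation p = 0.0331). The Sox2 KO embryos changed little between the stages, with 146 genes called (1.05%), of which 32 moved as in Oct4 Ctrl. The genes that rose in Oct4 Ctrl had a median log2 change of 0.18 in these KO embryos, compared with 1.59 in Oct4 Ctrl. With this reference 2 called genes ran with a lead (Fgf10 and Ifi27) and 9 against it, among them Pou5f1, Cdx2 and Neat1, and the score difference reversed to -0.165 (exact permutation p = 0.00264). The morula to early score kept its direction with the Sox2 KO embryos as reference, with a difference of 0.162 (exact permutation p = 0.00373). Fgf10, Ifi27 and the other genes just given are named because so few were left, after their values were seen.

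Among the genes that ran with a lead, those higher in Ctrl had a median log2 fold change of 2.08 over 64 genes and those lower in Ctrl -1.56 over 27, compared with 0.02 over all genes tested. A uniform shift by the score difference would have moved the same genes by a median of 0.30 and -0.25. The called genes were selected for a change of at least 1, so these medians are large by selection. Over all 1314 stage-rising genes, called or not, the median was 0.29 and 67.7% lay above 0, and over the 869 stage-falling genes it was -0.12 and 59.1% lay below 0. Of all tested genes, 51.9% lay above 0 and 47.6% below. The same uniform shift would have given medians of 0.23 for the stage-rising and -0.21 for the stage-falling genes.

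Tcf7l1 (ENSMUSG00000055799, chr6:72626378-72789254), a repressor of Wnt target genes in pluripotent cells, showed the largest increase of the named genes that ran with a lead. Its level was 4.15, 24.1 and 102 CPM at the lowest, median and highest Ctrl embryo and 0, 4.35 and 12.2 CPM among MWT embryos. Most Ctrl embryos were above the MWT range, but 2 lay within it. The log2 fold change was 3.04 ± 0.60 (adjusted p = 0.000325), next to 4.43 from early to late ICM in Oct4 Ctrl. Pycr1, a mitochondrial enzyme of proline synthesis, behaved alike: 1.90, 27.8 and 77.4 CPM in Ctrl and 2.20, 4.95 and 8.88 CPM in MWT (log2 fold change 2.64 ± 0.50, adjusted p = 0.000167). Its lowest Ctrl embryo lay below every MWT embryo, so the group difference came from the remaining embryos. Neither call held in limma voom with sample quality weights.

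Fgf4 (ENSMUSG00000050917, chr7:144847367-144865243), the growth factor by which epiblast cells signal to primitive endoderm, was measured at 70.6, 129 and 563 CPM in Ctrl and 20.9, 32.2 and 98.8 CPM in MWT. All 8 Ctrl embryos were above the MWT median, and the overlap was confined to the highest MWT and the lowest Ctrl embryos. The log2 fold change was 2.04 ± 0.36 (adjusted p = 3.59e-05), and it was called in each of 9 alternative fits and in each of the 15 that left out 1 embryo. KO embryos had 31.1 ± 15.4 CPM (SD, n = 8), close to the MWT median.

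The other named genes higher in Ctrl with a lead were Maged1, a MAGE-family protein gene on the X chromosome (2.44 ± 0.48), Hap1, which encodes huntingtin-associated protein (2.07 ± 0.46), and Dlgap3, a scaffold protein of synapses (2.00 ± 0.46). Dlgap3 was at 10.4 to 51.9 CPM in Ctrl and 0 to 8.57 CPM in MWT, without overlap. Pck2, the mitochondrial phosphoenolpyruvate carboxykinase, had 15.6, 85.8 and 144 CPM in Ctrl and 9.89, 28.5 and 44.4 CPM in MWT (1.54 ± 0.36, adjusted p = 0.00270). Of the 8 Ctrl embryos, 2 lay below the MWT median. Its call was lost in limma voom (adjusted p = 0.0911). Pfkp, the platelet-type phosphofructokinase, was higher by 1.80 ± 0.47, a call that was lost without Ctrl embryo 11 (adjusted p = 0.0942), with thinned counts (adjusted p = 0.0618), with sex as a covariate (adjusted p = 0.146) and in limma voom. Pfkp overlaps Pitrm1 on the other strand, and whether the counting used strand is not given in the sources used here.

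Alppl2, an alkaline phosphatase gene of the preimplantation embryo, was the named gene lower in Ctrl that fell most with stage. It was at 1.23, 46.9 and 483 CPM in Ctrl and 210, 448 and 742 CPM in MWT (log2 fold change -1.85 ± 0.45, adjusted p = 0.00464), and Oct4 Ctrl ICMs went from 194 to 13.0 CPM between the stages. The highest Ctrl value, embryo 2, was far above the other 7, all of which lay below the lowest MWT embryo. In an edgeR fit of the 15 ICMs alone the Alppl2 call was lost (adjusted p = 0.0542). Pemt, which makes phosphatidylcholine, was at 74.0, 188 and 705 CPM in Ctrl and 333, 684 and 876 CPM in MWT (-1.38 ± 0.32, adjusted p = 0.00291). Again a Ctrl embryo reached the MWT median while most lay below the MWT range.

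P2rx7, an ATP-gated ion channel, was at 0, 8.63 and 22.3 CPM in Ctrl and 4.44, 34.9 and 154 CPM in MWT (-2.84 ± 0.69, adjusted p = 0.00464). The P2rx7 call was lost in limma voom (adjusted p = 0.0645). Oasl2, an interferon-induced gene (-2.27 ± 0.58), and Slc35e4, a solute carrier (-1.72 ± 0.36), were also lower and fell with stage. The Oasl2 call was lost without MWT embryo 14 (adjusted p = 0.0599). Gata6, the transcription factor that specifies primitive endoderm, was lower in Ctrl without overlap, at 49.2, 412 and 592 CPM compared with 696, 740 and 935 CPM in MWT (-1.23 ± 0.29, adjusted p = 0.00271), and fell by 1.33 on the log2 scale from early to late ICM in Oct4 Ctrl.

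**Figure D3:**
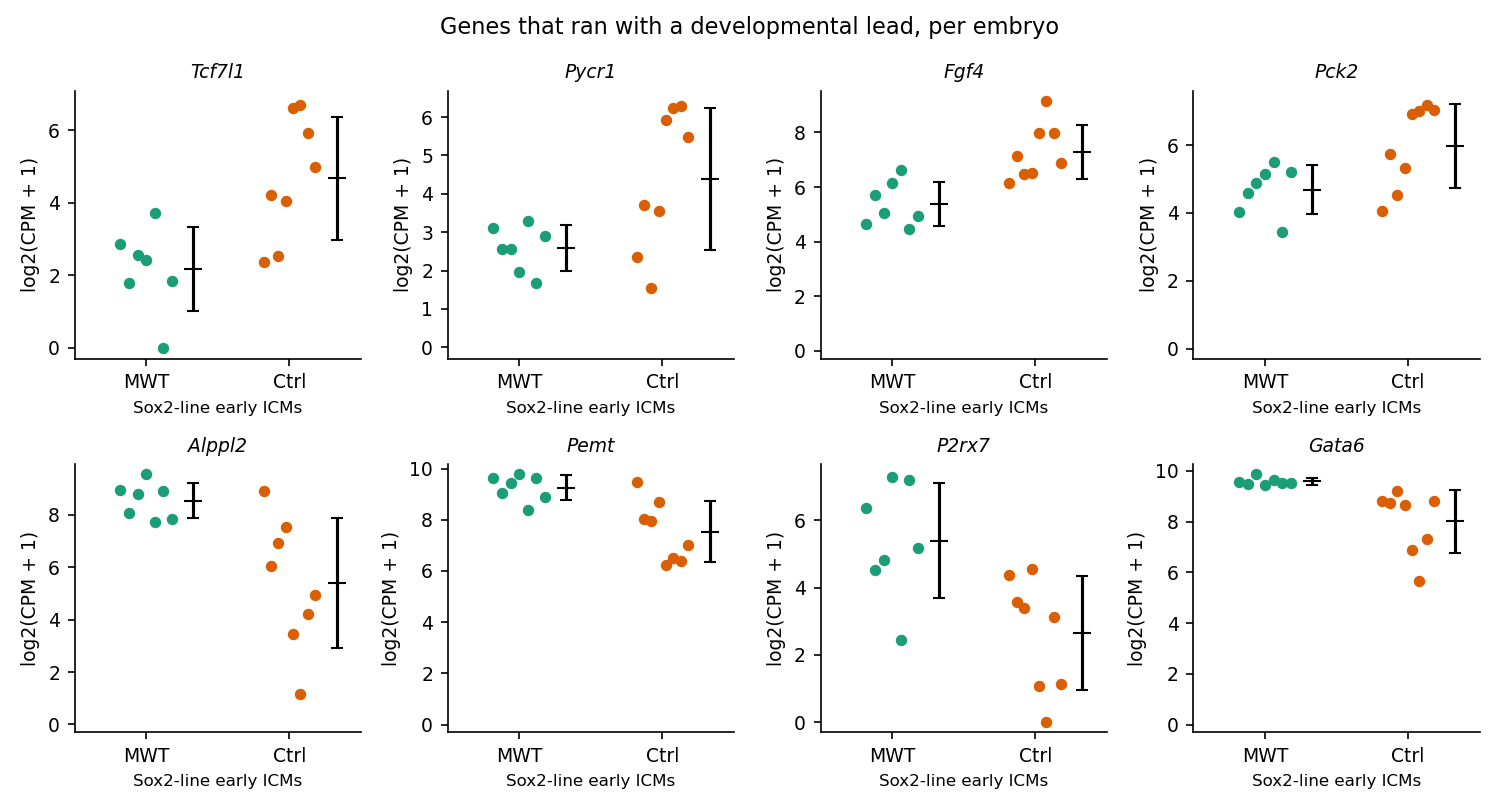
Levels of 8 genes that ran with a lead in the 7 MWT and 8 Ctrl early ICMs, as log2(CPM + 1) on the y axis, with mean and SD beside the points. Tcf7l1, Pycr1, Fgf4 and Pck2 are higher and Alppl2, Pemt, P2rx7 and Gata6 lower in most Ctrl embryos, and of these 8 genes only Gata6 has groups without overlap.

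Bmp4, a secreted ligand, and Id3 were among the genes that ran against a lead. Bmp4 was at 8.56, 31.2 and 68.9 CPM in Ctrl and 30.4, 66.1 and 334 CPM in MWT (log2 fold change -1.53 ± 0.41, adjusted p = 0.0122), although it rose by 2.23 from early to late ICM in Oct4 Ctrl. The difference rested on MWT embryo 10, the highest: without it the log2 fold change was -0.76 (adjusted p = 0.301). Its call was also lost in DESeq2, in limma voom and with sex as a covariate. Id3, an inhibitor of bHLH factors and a known BMP target, was separated without overlap, at 204, 248 and 402 CPM in Ctrl and 526, 572 and 883 CPM in MWT (-1.25 ± 0.31, adjusted p = 0.00540), and rose by 1.26 with stage. It kept its call in the same 9 alternative fits and without any 1 embryo. KO embryos had 71.3 ± 26.1 CPM of Id3 and 6.31 ± 4.90 CPM of Bmp4 (SD, n = 8).

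Also lower in Ctrl but rising with stage were Tinagl1, a matrix protein gene (-1.52 ± 0.36), Sqle, the squalene epoxidase of sterol synthesis (-1.22 ± 0.34), and Sft2d2, a vesicle transport gene (-1.17 ± 0.36). The Sqle call was lost without MWT embryo 14 (adjusted p = 0.0944), and the Sft2d2 call in 5 of the 15 fits that left out 1 embryo. Rbfaos, an antisense transcript, was lower by -1.76 ± 0.38, but its reads may belong in part to the overlapping gene Rbfa. The only named gene higher in Ctrl and falling with stage was Zfp599, a zinc finger gene, at 20.1 to 46.8 CPM in Ctrl and 5.17 to 16.5 CPM in MWT (1.62 ± 0.26, adjusted p = 8.67e-06). Its groups did not overlap, and it fell by 1.95 from early to late ICM in Oct4 Ctrl.

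The groups did not overlap for 43 of the 249 called genes without a call between early and late ICM (17.3%), near the 15.6% of all 359 called genes, and for 9 of the 91 with a lead (9.89%). The difference between these shares was not tested. Neat1 (ENSMUSG00000092274, chr19:5824708-5845478), the long non-coding RNA that builds paraspeckles, was at 2.46, 7.18 and 30.1 CPM in Ctrl and 39.6, 103 and 140 CPM in MWT. Every Ctrl embryo lay below every MWT embryo, and the log2 fold change was -3.18 ± 0.41 (adjusted p = 1.56e-08). KO embryos were at 7.28 ± 5.34 CPM (SD, n = 8), and the early to late change in Oct4 Ctrl was 0.85, opposite in sign to the difference here.

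Hs3st3b1, a heparan sulfate sulfotransferase, was at 4.15 to 14.5 CPM in Ctrl and 19.8 to 105 CPM in MWT (-2.82 ± 0.42, adjusted p = 1.24e-06). Nr4a1, an immediate early nuclear receptor, was at 0.951 to 5.52 CPM in Ctrl and 5.80 to 46.5 CPM in MWT (-2.55 ± 0.39, adjusted p = 3.53e-06). Neither gene overlapped between the groups, and neither moved by 1 or more on the log2 scale from early to late ICM. Nr4a1 had fallen from morula to early ICM, as had Neat1, which is in the direction of a lead at that step. Myod1, the muscle transcription factor, was lower by -3.02 ± 0.55 on the strength of high values in some MWT embryos (1.27, 17.6 and 100 CPM, compared with 2.46, 3.84 and 6.64 CPM in Ctrl). The Myod1 call was lost in limma voom (adjusted p = 0.119).

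Among the named genes higher in Ctrl without a late-stage call was Sertad1, a regulator of the cell cycle, whose levels did not overlap between the groups. It was at 85.1, 178 and 288 CPM in Ctrl and 36.8, 61.9 and 72.5 CPM in MWT (log2 fold change 1.60 ± 0.25, adjusted p = 4.23e-06). KO embryos were at 200 ± 58.9 CPM (SD, n = 8). St3gal4, a sialyltransferase (1.73 ± 0.38), and Atp8b2, a lipid flippase (1.73 ± 0.49), were called here and had risen from morula to early ICM, which is in the direction of a lead at that step. The Atp8b2 call was lost without Ctrl embryo 9 (adjusted p = 0.0697), with sex as a covariate (adjusted p = 0.0562) and in limma voom. The St3gal4 call was also lost in limma voom (adjusted p = 0.0738). Klhl22, an adaptor of a ubiquitin ligase (1.68 ± 0.38), was called at neither step. Cxcl14, a chemokine (2.00 ± 0.65, adjusted p = 0.0453), and Nptx2, a secreted pentraxin (1.64 ± 0.54, adjusted p = 0.0498), lay near the threshold, and lost their calls in 10 and 11 of the 15 fits that left out 1 embryo and in DESeq2. Thinned counts and sex as a covariate also ended the Cxcl14 call.

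**Figure D4:**
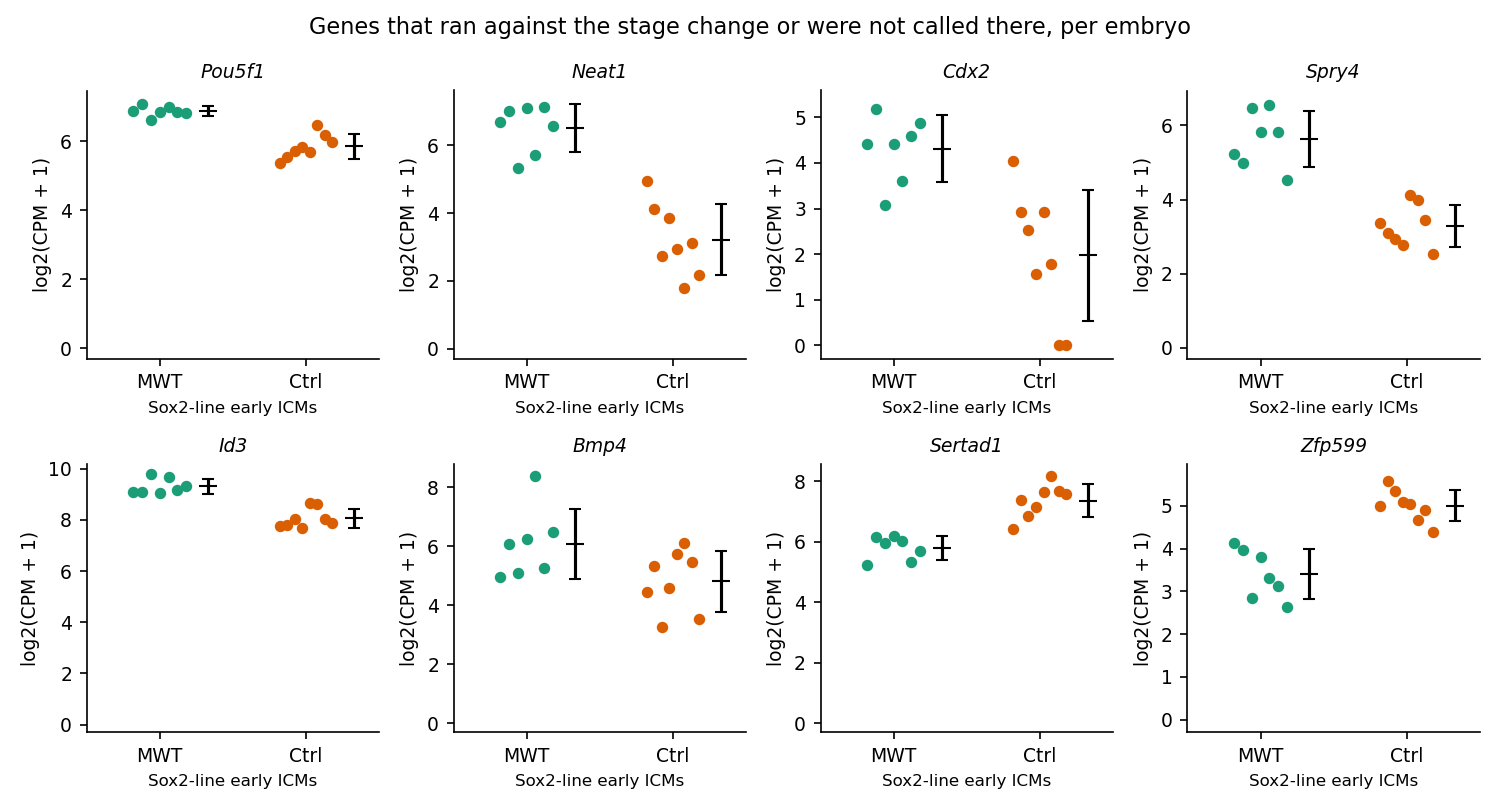
Levels of 8 genes that ran against the early to late ICM change or were not called there, as log2(CPM + 1) on the y axis, in the 7 MWT and 8 Ctrl early ICMs, with mean and SD beside the points. Pou5f1, Neat1, Spry4 and Id3 are lower and Sertad1 and Zfp599 higher in Ctrl without overlap, and Cdx2 and Bmp4 overlap.

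Of 21 naive pluripotency genes tested, 2 were higher in Ctrl (Fgf4 and Tdgf1) and Pou5f1 was lower, with a median log2 fold change of -0.01, compared with 1.41% higher, 1.17% lower and a median of 0.02 over all genes. With so few members, the counts of this and the following lists rest on single genes, and no list was tested as a whole. Tdgf1, a co-receptor of Nodal, was at 80.9, 240 and 547 CPM in Ctrl and 55.0, 126 and 190 CPM in MWT (1.15 ± 0.30, adjusted p = 0.00974), and its change of 0.22 from early to late ICM was not called. Without Ctrl embryo 10 the Tdgf1 fold change was 0.95, below the fold minimum, and in limma voom its call was lost (adjusted p = 0.0533). Nanog (0.16, adjusted p = 0.773), Klf4 (0.23, adjusted p = 0.673) and Esrrb (-0.24, adjusted p = 0.593) did not pass. Utf1 (0.70) and Dppa3 (-0.53) passed the adjusted p but not the fold minimum. None of 13 later epiblast genes was called by edgeR or DESeq2, and 0 of them had an unadjusted p under 0.05.

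Of 21 trophectoderm genes tested, 3 were lower (Lrp2, Cdx2 and Cldn4) and none was higher by edgeR or DESeq2 (7 had an unadjusted p under 0.05), and 15 of the 21 fold changes were below 0 (71.4%), with a median of -0.30. Over all tested genes 1.17% were called lower and 47.6% lay below 0. Cdx2, the transcription factor of the trophectoderm, was at 0, 3.61 and 15.6 CPM in Ctrl and 7.42, 20.3 and 35.5 CPM in MWT (-2.11 ± 0.45, adjusted p = 0.00110). Lrp2, the endocytic receptor megalin, was at 3.80, 9.03 and 28.1 CPM in Ctrl and 29.2, 55.7 and 206 CPM in MWT (-2.71 ± 0.56, adjusted p = 0.000632). Cldn4, a tight junction protein, was at 77.0, 98.2 and 183 CPM and 185, 278 and 462 CPM (-1.40 ± 0.25, adjusted p = 4.49e-05). Lrp2 and Cldn4 did not overlap between the groups, and none of the 3 was called from early to late ICM, although Cldn4 stood at the fold minimum in the rising direction. The summed level of the list was 1365 to 2307 CPM in Ctrl and 1654 to 3367 CPM in MWT, Krt8 ranged from 37.6 to 263 and from 90.0 to 472 CPM, and Elf5 was at most 7.76 CPM in any embryo. The part of trophectoderm cells left after immunosurgery in these differences was not tested.

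In the primitive endoderm list, Gata6 was the only gene called among 17 tested, beside 2.58% of all genes. Its summed level was lower in Ctrl (709 to 1761 CPM, compared with 1371 to 2072 CPM in MWT), whereas the median fold change was 0.21, as the abundant Gata6 weighs most in the sum. Sox17 (-1.45, adjusted p = 0.128) and Pdgfra (-0.87, adjusted p = 0.197) did not pass. Neither Gata4 (0.74, adjusted p = 0.638) nor Sparc (0.76, adjusted p = 0.219) passed either.

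Of 11 targets of the MAPK pathway, which the MEK inhibitor blocks, 3 were lower in Ctrl and none was higher by edgeR with TMM scaling, with a median of 0.01. An unadjusted p under 0.05 was found for 5, and both DESeq2 and edgeR with total UMI scaling called 4 in either direction. The shares over all tested genes were 1.17% lower and 1.41% higher. Spry4, a feedback inhibitor of receptor tyrosine kinase signalling, was at 4.72, 8.48 and 16.6 CPM in Ctrl and 22.0, 55.1 and 92.2 CPM in MWT, without overlap (-2.54 ± 0.48, adjusted p = 0.000133). Myc, the growth-promoting transcription factor, was at 6.78, 22.3 and 69.7 CPM in Ctrl and 25.4, 94.3 and 262 CPM in MWT (-1.93 ± 0.44, adjusted p = 0.00242). Dusp4, a MAPK phosphatase, was lower by -2.52 ± 0.60 (adjusted p = 0.00379), a call that was lost in limma voom (adjusted p = 0.0651). Fos (1.26, adjusted p = 0.0532), Egr1 (0.94, adjusted p = 0.0962) and Dusp6 (0.71, adjusted p = 0.313) had positive fold changes that did not pass, so the list did not move one way.

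Glycolysis and pyruvate genes gave 3 higher calls (Pfkp, Pck2 and Ldha) and 1 lower call among 20 tested, with a median of 0.33, beside 1.41% higher and 1.17% lower over all tested genes. Ldha, lactate dehydrogenase A, was near the threshold (1.46 ± 0.48, adjusted p = 0.0493) and lost its call without any of 10 of the embryos, in DESeq2, in limma voom and with sex as a covariate (adjusted p = 0.0830). Slc2a3, the glucose transporter GLUT3, went the other way, at 44.9, 109 and 255 CPM in Ctrl and 138, 378 and 947 CPM in MWT (-1.66 ± 0.34, adjusted p = 0.000552), and its change between early and late ICM was 0.00.

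Of 12 genes induced by p53, 2 were lower and none was higher by edgeR or DESeq2, 7 had an unadjusted p under 0.05, and 10 fold changes were below 0 (83.3%), with a median of -0.71. Over all tested genes 1.17% were called lower and 47.6% lay below 0. The pro-apoptotic genes Bbc3 (0, 2.88 and 5.19 CPM in Ctrl; 4.35, 10.0 and 19.8 CPM in MWT; -2.0 ± 0.53, adjusted p = 0.0112) and Pmaip1 (7.08, 15.5 and 29.0 CPM; 19, 43.3 and 93.1 CPM; -1.58 ± 0.38, adjusted p = 0.00447) were called. Mdm2 (-0.85) and Bax (-0.76) passed the adjusted p but not the fold minimum. The list also had a median of -0.74 from early to late ICM in Oct4 Ctrl, and of these genes Pmaip1 counted among those with a lead.

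Of the remaining lists, 18 oocyte and cleavage-stage genes gave 1 call beside 2.58% of all tested genes, Tle6, a member of the subcortical maternal complex of the oocyte (1.07 ± 0.35, adjusted p = 0.0481), which was lost in 10 of the 15 fits that left out 1 embryo, without the detection filter, in limma voom, with thinned counts (adjusted p = 0.0957) and with sex as a covariate (adjusted p = 0.0794). It rose by 1.65 from early to late ICM in Oct4 Ctrl and so counted among the genes with a lead. Sox15, a relative of Sox2, was lower (-1.10 ± 0.27, adjusted p = 0.00424), but it overlaps Mpdu1 on the other strand, and its fold change fell just short of the minimum without MWT embryo 9. No gene of the LIF receptor and STAT3 list (10 tested, 2 with an unadjusted p under 0.05), the DNA methylation list (6 tested, 2 such genes) or the Y-linked list (4 tested, 0 such genes) was called by edgeR or DESeq2. Of 14 integrated stress response genes, 4 had an unadjusted p under 0.05, edgeR called 0 and DESeq2 called 1.

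The stage score was then entered as a term in a fit of the 15 ICMs alone. Without the term this fit called 310 genes (2.24%), 162 higher and 148 lower in Ctrl. At equal stage score it called 145 (1.05%), 44 higher and 101 lower, of which 36 had not been called without the term. Of the 80 genes that ran with a lead in the fit without the term, 15 stayed called (18.8%), compared with 10 of 19 that ran against it and 84 of 211 not called between the stages (39.8%). Fold changes moved less than the calls. Over the 359 called genes, the medians in the fits of the 15 ICMs went from 2.09 to 1.17 for those higher with a lead and from -1.56 to -1.11 for those lower with a lead. For genes not called between the stages they went from 1.51 to 1.24 and from -1.53 to -1.47. The score was built from stage-called genes, so a loss of such calls follows in part from its construction.

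Tcf7l1 and Pycr1 lost their calls at equal score, with log2 fold changes of 1.11 ± 0.38 (adjusted p = 0.130) and 0.66 ± 0.38 (adjusted p = 0.427), and Pck2 went to 0.34 ± 0.25. Fgf4 was still called at 1.04 ± 0.27 (adjusted p = 0.0380). Neat1 (-2.63 ± 0.29), Spry4 (-2.84 ± 0.34), Lrp2 (-2.78 ± 0.44), Nr4a1 (-2.93 ± 0.42), Pou5f1 (-1.21 ± 0.16) and Id3 (-1.51 ± 0.14) kept theirs, as did Sertad1 (1.16 ± 0.17) and Zfp599 (1.76 ± 0.28). Bmp4 was further from 0 with the term (-2.39 ± 0.38) than without it. Gata6 missed the threshold at equal score (-0.85 ± 0.25, adjusted p = 0.0717).

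**Figure D5:**
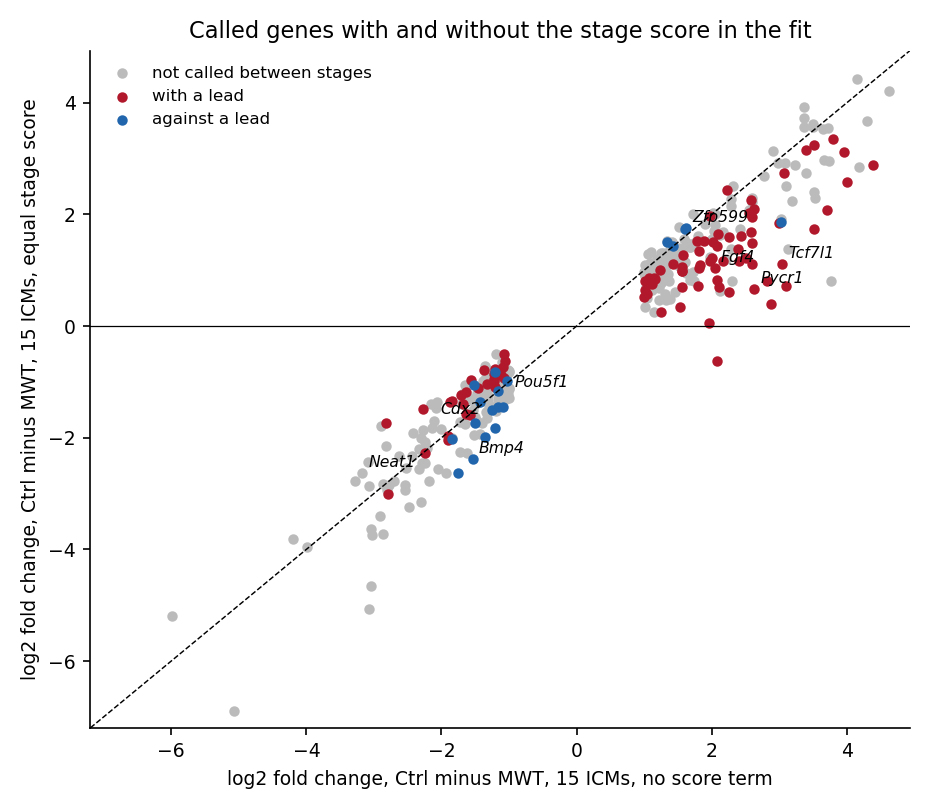
Log2 fold changes Ctrl minus MWT of the called genes in the 15 early ICMs, without (x axis) and with (y axis) the early to late stage score as a term; the dashed line marks equal values. Genes that ran with a lead mostly lie closer to 0 with the term, as Tcf7l1 and Pycr1 do, whereas Neat1 and Pou5f1 stay near the line.

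Whether the difference was particular to the Sox2 line was tested against the same contrast in the Oct4 line, where 8 Ctrl early ICMs lacked maternal Oct4 and 5 MWT early ICMs had it. The stage of those MWT ICMs rests on their titles. Between them 52 genes were called (0.373%), and 7 of these (13.5%, or 1.95% of the 359) were called here in the same direction. The interaction of line and maternal genotype was called for 108 genes (0.776%). Among them were Tcf7l1 (4.18, adjusted p = 0.00332), Fgf4 (2.78, adjusted p = 0.000424), Neat1 (-2.33, adjusted p = 0.0353), Cldn4 (-1.99, adjusted p = 0.000938), Gata6 (-1.75, adjusted p = 0.0177) and Pou5f1 (-1.39, adjusted p = 0.0108), where positive values mean a larger Ctrl minus MWT difference in the Sox2 line. All of these values but that of Neat1 exceeded in size the Sox2-line fold change. For those genes the Oct4-line difference therefore had the opposite sign and makes up part of the interaction. Sertad1 and Zfp599 were called higher in Ctrl in both lines, by 1.05 and 1.58 in the Oct4 line, and their interaction did not pass (adjusted p = 0.534 and 0.986). The interaction was called for 28 of the 91 genes with a lead (30.8%) and for 58 of all 359 (16.2%). The Oct4 Ctrl early ICMs enter both the interaction and the stage reference, so these calls are not independent of each other.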

How the data were processed

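The authors isolated single mouse ICMs, prepared 3′-end libraries with UMIs and aligned them to mm10 with GENCODE vM23 genes. Per the labels and the study's methods they used UMI-tools, Cutadapt, TopHat2, Bowtie2 for spike-ins, featureCounts and TRUmiCount, and the versions are not given in the sources used here. The deposited table holds UMI counts, neither normalized nor pooled, for 29022 genes in each embryo of the series. A deposited table of regularized log values was not used. Labels name the samples of a group as separate embryos.

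Counts were scaled by TMM and tested in edgeR 4.0.16 (R 4.3.3; quasi-likelihood F test) over all embryos of the series in 16 groups, which share an estimate of the spread. Tested were the 13923 genes detected in at least a 0.5 share of the embryos of at least 1 stage. Calls required a p below 0.05 after Benjamini-Hochberg adjustment together with a log2 difference of 1 or more in size. Standard errors were taken from the fold change and its F value. CPM used total UMIs, and scores used log2 CPM with a prior count of 2. Scores were compared by two-sided exact permutation over 6435 arrangements. Depth limits low genes: a count of 0 allows 3 UMIs per library.

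Alternatives were DESeq2 1.42.0, limma 3.58.1, other scalings and filters, thinned counts, sex, other stage references and leaving out each embryo. The scripts were tested on simulated data. No pair of embryos agreed within sampling noise (lowest chi-square per gene 3.19 over 49 pairs). The members, the 13 gene lists and the tests were chosen with earlier results of these data known. Named are Sox2, Pou5f1, called genes of the lists, and, among called genes with at least 20 CPM and with at least 6 embryos of each group beyond the other group's median, the 6 highest and 6 lowest fold changes with, against and outside the early to late change, passing over predicted genes.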

Additional observations from a re-analysis of the deposited data

Results flagged for a closer look

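A single embryo stood far from the rest of its group for 7 of 100 sets of values examined, and chance gives about 1 in 20. Ctrl embryo 2, which had the lowest stage scores of its group, was the highest for Alppl2 (483 CPM) and for Cdx2 (15.6 CPM). Ctrl embryo 10 was the highest for Fgf4 (563 CPM). Among MWT embryos, embryo 10 was the highest for Bmp4 (334 CPM), embryo 15 for Lrp2 (206 CPM) and embryo 14 for Oasl2 (60.5 CPM), and embryo 14 was the lowest for Dlgap3 (0 CPM).

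For 14 of the 46 named genes, the Ctrl minus MWT difference of the Sox2 line differed from that of the Oct4 line by the interaction test, compared with 58 of the 359 called genes (16.2%) and 0.776% of all tested genes. Named genes were picked for large differences in the Sox2 line, which favours such calls, and the stage of the Oct4 MWT ICMs rests on titles that their source names contradict. The interaction was positive, on the log2 scale, for Tcf7l1 (4.18), Dlgap3 (3.35), Hap1 (3.14), Ldha (2.81), Fgf4 (2.78), St3gal4 (2.22), Pck2 (2.02) and Tle6 (1.86). Negative interaction values were found for P2rx7 (-4.79), Neat1 (-2.33), Pmaip1 (-2.28), Cldn4 (-1.99), Gata6 (-1.75) and Pou5f1 (-1.39). Except for Neat1, each interaction exceeded in size the Sox2-line fold change, so the Oct4 line differed in the opposite direction.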

How the results depend on the processing

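The count of called genes kept within 1.5 times of 359 in most alternatives, from 281 with sex as a covariate to 356 with RLE size factors, with 349 in DESeq2 (295 of them shared with the 359), 354 with total UMI scaling and 294 with thinned counts. It was 172 among genes of at least 20 CPM and 881 without a fold minimum, both by construction, and leaving out 1 embryo gave 262 to 454. The 4 replicate numbers shared by the groups did not pair embryos (correlations of deviations from -0.07 to 0.23). A replicate block on those 8 embryos gave 302 calls and 86 with a lead (50 higher and 36 lower), compared with 61 and 10 in the same embryos without the block; the cause was not tested. Genes with a lead numbered 44 at 20 CPM or more, 59 to 139 leaving out 1 embryo, and 2 with the Sox2 KO reference, under which the early to late score difference reversed to -0.165; the Oct4 MWT reference took that difference to 0.158, past the threshold, and leaving out 1 embryo gave 0.118 to 0.183. For the morula to early score it was 0.0882 to 0.128 without 1 embryo, on the same side of the threshold each time. With the morula to early score as the term, 93 genes were called instead of 145. Limma voom gave 144 higher and 179 lower calls, a share of higher calls below that of edgeR, and the block 131 and 171. Voom dropped the calls of Atp8b2, Bmp4, Cxcl14, Dusp4, Ldha, Myod1, Nptx2, P2rx7, Pck2, Pfkp, Pycr1, St3gal4, Tcf7l1, Tdgf1 and Tle6, and the fit of 15 ICMs those of Alppl2 (adjusted p = 0.0542) and Cxcl14. Counts of interaction calls were 154 in DESeq2 and 118 with total scaling. Alternatives for the count with a lead, other than stage references, and the one without X- and Y-linked genes were chosen after seeing the data. Low genes rest on few UMIs, and 1 line, 1 stage and unknown litters limit what the comparison can separate.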
